A study of Homo sapiens with 9 samples.

Results

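The genes described here are 35 genes of homologous recombination, the Fanconi anemia pathway and the DNA damage checkpoint, measured by RNA sequencing in OVCAR3, an established human ovarian carcinoma cell line. They were taken by gene symbol from a given list, and all 35 were found among the 58735 genes of the deposited count table. All 35 also passed the filter on low counts that left 17023 genes for testing, so none was lost to low expression. The cells were grown in RPMI 1640 with fetal bovine serum and bovine insulin, and RNA was sequenced after 72 h in culture. Each of 3 groups had 3 libraries. The control group carried a scramble short hairpin RNA (shRNA) and is labelled wild type. The other groups are labelled GPX3 knock-down and carried shRNA#76 or shRNA#78, hairpins against the mRNA of GPX3, a secreted glutathione peroxidase, and are called sh76 and sh78 here. The labels do not say how many independent transductions or cultures the replicates stand for, so p-values measure the spread between these libraries, which may be technical.

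Homologous recombination repairs a DNA double-strand break by copying the intact sister chromatid. The broken ends are first cut back to single strands, and BRCA1, PALB2 and BRCA2, with helper proteins such as XRCC2, XRCC3 and RAD54L, then prepare them for strand exchange. The Fanconi anemia pathway unhooks crosslinks between DNA strands through a core complex that attaches ubiquitin to FANCD2 and FANCI, and it hands the resulting break to the same machinery. Inherited or acquired loss of BRCA1 or BRCA2 is a well-known feature of high-grade serous ovarian carcinoma, and many of these genes are transcribed mainly in cells that replicate their DNA.

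Many genes expressed in S phase carry binding sites of E2F transcription factors near their starts, and the promoters were searched for the letters TTCCCGC on either strand (GCGGGAA on the gene's strand), one form of such a site. RefSeq promoter windows on GRCh38.p14, 250 bases before to 50 after a start, were found for 32 of the 35 genes. RAD54B, NBN and FANCI had no entry. The letters were in a window of 15 of the 32 genes (46.9%), against 7.82% of all 27305 genes with a window and 12.4% of the 11349 that were also tested here. The 15 genes were BRCA1, BARD1, BRIP1, RAD51D, XRCC2, XRCC3, RAD52, RAD54L, BLM, FANCC, FANCE, FANCG, FANCL, FANCD2 and POLQ. In 8 of these the letters and 11 flanking bases on each side lay wholly before a start, and those 9 sites are shown, 5′ to 3′ on the gene's strand, with the searched letters in capitals.
BRCA1: aacggaaaagcGCGGGAAttacagataaa
RAD51D: gggctctgggcGCGGGAAtcccggcggat
RAD52: gagggaagctgGCGGGAAgtaggaggcag
RAD54L: gcgcagcactaTTCCCGCctcttccttgg
BLM: agcctgaggggGCGGGAAcagatgtccga
FANCC, first window: tcgtcggaattTTCCCGCgacgccgcggg
FANCC, second window: ggcgagaggggTTCCCGCcggcgcagggc
FANCG: cctcggtggaaGCGGGAAcccaggaggac
FANCL: cctccaggatcTTCCCGCcaaggctgggg

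These sites lie at chr17:43125394-43125422 (minus strand, BRCA1), chr17:35119801-35119829 (minus, RAD51D), chr12:949911-949939 (minus, RAD52) and chr1:46247628-46247656 (plus, RAD54L). The BLM site is at chr15:90717261-90717289 (plus). The FANCC sites are at chr9:95317737-95317765 and chr9:95317352-95317380 (minus), the FANCG site at chr9:35080009-35080037 (minus) and the FANCL site at chr2:58241407-58241435 (minus). Since 11 of the genes have more than 1 RefSeq start, a site before one start can lie after another. In GENCODE 29 the BRCA1, RAD51D and FANCG sites overlap an exon and an untranslated region of the gene. For FANCG only flanking bases do, and the searched letters lie outside the gene. The RAD52 and FANCC sites lie inside the gene but in no exon. The RAD54L and BLM sites overlap no annotated gene, and the FANCL site overlaps an exon of AC007250.1 on the other strand. Other letters were searched in the same windows, again on both strands. CCAAT, the NF-Y box, was found for 14 of the 32 genes (43.8%, against 39.7% of all genes and 42.7% of those tested), and TTGGCGC, another E2F form, for 2 (6.25%, against 3.66% and 5.84%). TTTGAA and TTCGAA, letters of the cell cycle gene homology region, were found for 4 (12.5%, against 18.2% and 13.7%) and 0 (0%, against 1.82% and 2.34%). A match is a description of the letters and not a measured binding site.

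Across all libraries, total counts ran from 14652965 to 21327562, and the counts of the 35 genes from 72 to 2055 per library. GPX3 itself was measured at 173, 109 and 117 CPM (counts scaled to library size) in the scramble libraries, at 56.8, 55.2 and 55.5 in sh76 and at 35.3, 28.4 and 28.3 in sh78, with no overlap between groups. Its log2 fold change was -1.25 ± 0.16 (SE, adjusted p = 0.0026 in edgeR) with sh76 and -2.12 ± 0.17 (adjusted p = 0.00012) with sh78. All 10 markers of ovarian carcinoma epithelium were present, at mean FPKM values of 21.0 to 685. Their summed FPKM ran from 2066 to 2346 in scramble, 1800 to 2085 in sh76 and 1696 to 1846 in sh78. Summed over 6 fibroblast, 5 leukocyte and 4 endothelial markers, FPKM stayed within 2.82 to 5.61, 0.468 to 0.942 and 2.17 to 4.29 per library, and no marker was at 0 in every library. The endothelial sum was 2.17 to 2.48 in scramble, 2.43 to 3.18 in sh76 and 3.15 to 4.29 in sh78. KDR had the largest difference of the 4 genes, with mean FPKM of 1.42 in scramble and 2.85 in sh78. VWF was at 0.790 and 0.760, CDH5 at 0.0654 and 0.133, and PECAM1 at 0.0445 and 0.0253. The part of these markers in the results was not tested.

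In the scramble cells, the levels of the 35 genes spread widely on the FPKM scale, which corrects counts for gene length and library size. RBBP8, which encodes the resection factor CtIP, was highest at 12.8 ± 0.461 FPKM (SD, n = 3). FANCG of the Fanconi core complex followed at 12.7 ± 0.871, within the spread of RBBP8, and NBN, the nibrin subunit of the MRE11 complex, at 11.6 ± 0.0443. These 3 were the genes at 10 FPKM or more. The median over the 35 genes was 4.46, against 3.64 over all genes tested. BRCA1 stood at 3.47 ± 0.382 FPKM, the checkpoint kinase ATM at 1.66 ± 0.320 and BRCA2 at 1.86 ± 0.279, the last pair not apart beyond their spread. At the low end RAD51B, RAD51D and RAD50 had 0.833 ± 0.101, 0.825 ± 0.0537 and 0.669 ± 0.0967 FPKM, and the first pair did not differ beyond their spread. The plot of FPKM by library shows that levels differed more between genes than between groups. Across the 9 libraries, the highest CPM of a gene was 1.11 to 1.98 times its lowest, with a median of 1.34.

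**Figure D1:**
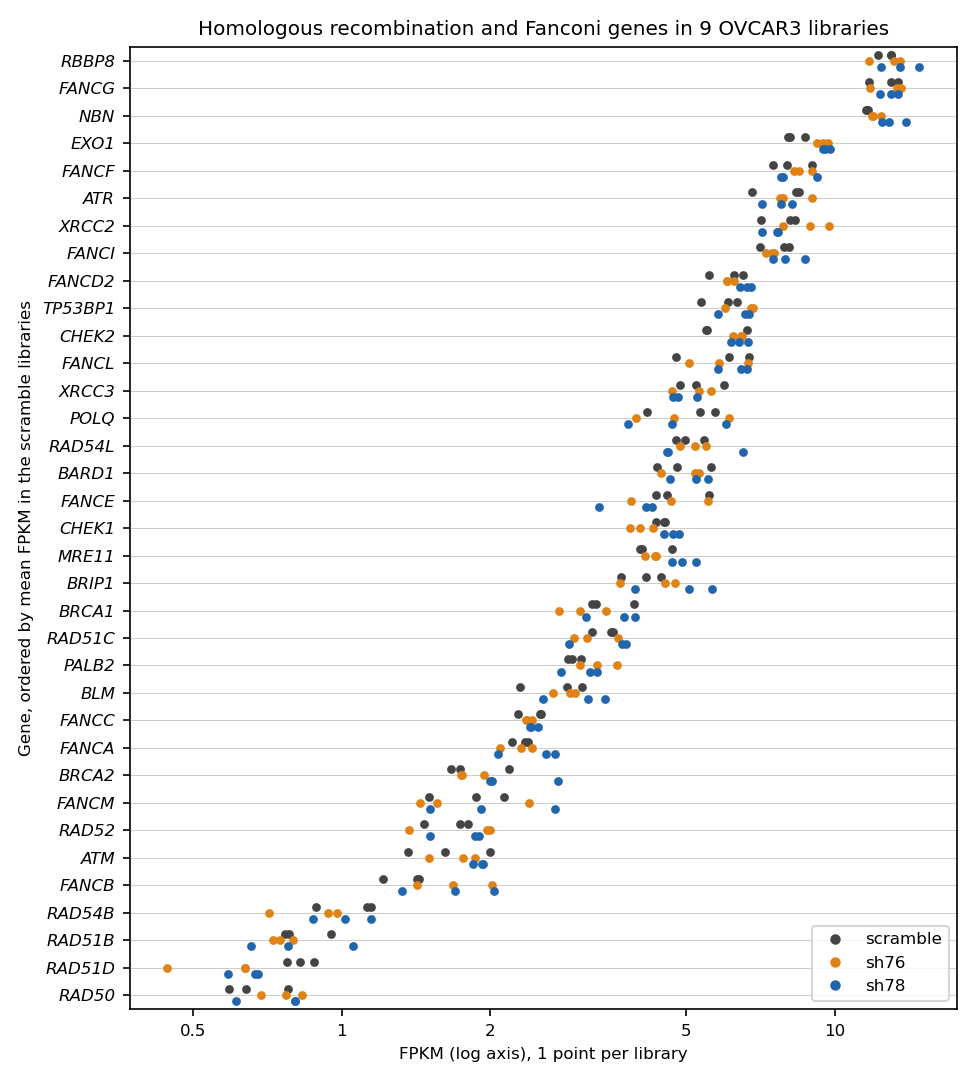
FPKM (log axis) of each of the 35 genes in the 9 libraries, 1 point per library, coloured by group and ordered by the scramble mean. Levels run from 12.8 FPKM (RBBP8) to 0.669 FPKM (RAD50) in scramble, and the points of the 3 groups lie close together in nearly every row.

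The low RAD50 value stands beside an overlap in the annotation. RAD50, the SMC-like subunit that works in a complex with MRE11 and NBN, shares 79.7% of its exonic bases with AC116366.3 on the same strand in GENCODE 29. That second gene was listed with 0 to 3 counts in every library. MRE11 shares 2.9% of its exonic bases with another gene and stood at 4.26 ± 0.365 FPKM. XRCC3, a strand exchange helper, shares 76.7% with KLC1 on the other strand, and RAD54B, a DNA translocase, 59.1% with FSBP. How the counting treated fragments over several genes is not given in the sources used here, and its part in these levels was not tested. The levels of RAD50, XRCC3 and RAD54B are therefore uncertain. The same limit holds, over a smaller share of exonic bases, for other genes. Among them are TP53BP1 (28.7%), RAD54L (25.1%), FANCA (23.6%), FANCL (19.7%) and ATR (16.4%). Their largest overlap is with a gene on the other strand, and the libraries were non-directional.

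None of the 35 genes passed the main test for a change with either hairpin, a fit that leaves out the replicate number. With that number as a block, described below, 4 genes (11.4%) were called with sh76 and 7 (20%) with sh78. The block called 20.4% and 19.9% of all genes tested. A gene was called at a Benjamini-Hochberg adjusted p under 0.05 over all 17023 genes in edgeR's quasi-likelihood test. In the main fit with sh76, 0 of 35 genes were called, against 3.58% of all genes tested. With sh78, 0 of 35 were called, against 4.41%, and 0 of 35 were called between sh78 and sh76, against 3.7%. DESeq2 also called 0 in each comparison. At an unadjusted edgeR p under 0.05 there were 2 genes with sh76 (1 higher, 1 lower), 5.71% of the 35 against 17.4% of all genes tested. There were 4 with sh78 (3 higher, 1 lower), 11.4% against 17.5%, and 4 between the hairpins (3 higher in sh78, 1 lower), 11.4% against 16.3%. The smallest adjusted p in the main edgeR fit was 0.102, 0.139 and 0.219 in the 3 comparisons. Both hairpin comparisons share the scramble libraries, so their values are not independent of each other.

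The measured changes were small, and the intervals of the main fit, without the replicate block, limit how large they could be. Log2 fold changes ran from -0.52 (RAD51D) to 0.33 (FANCB) with sh76, and from -0.36 (RAD51D) to 0.32 (FANCB) with sh78. FANCB encodes a subunit of the Fanconi core complex. The 95% interval of the fold change stayed within 1.5-fold in either direction for 32 of 35 genes with sh76, 31 with sh78 and 31 between the hairpins, and within 2-fold for all 35 in each comparison. The median log2 fold change was 0.02 with sh76 and 0.07 with sh78, against 0.01 over all genes tested in both. With sh78 the estimate was above 0 for 27 of 35 genes (77.1%, against 51.3% of all genes), and with sh76 for 21 (60%, against 51.4%). Between the hairpins, 22 of 35 (62.9%, against 50.1%) were higher in sh78, with a median of 0.08.

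**Figure D2:**
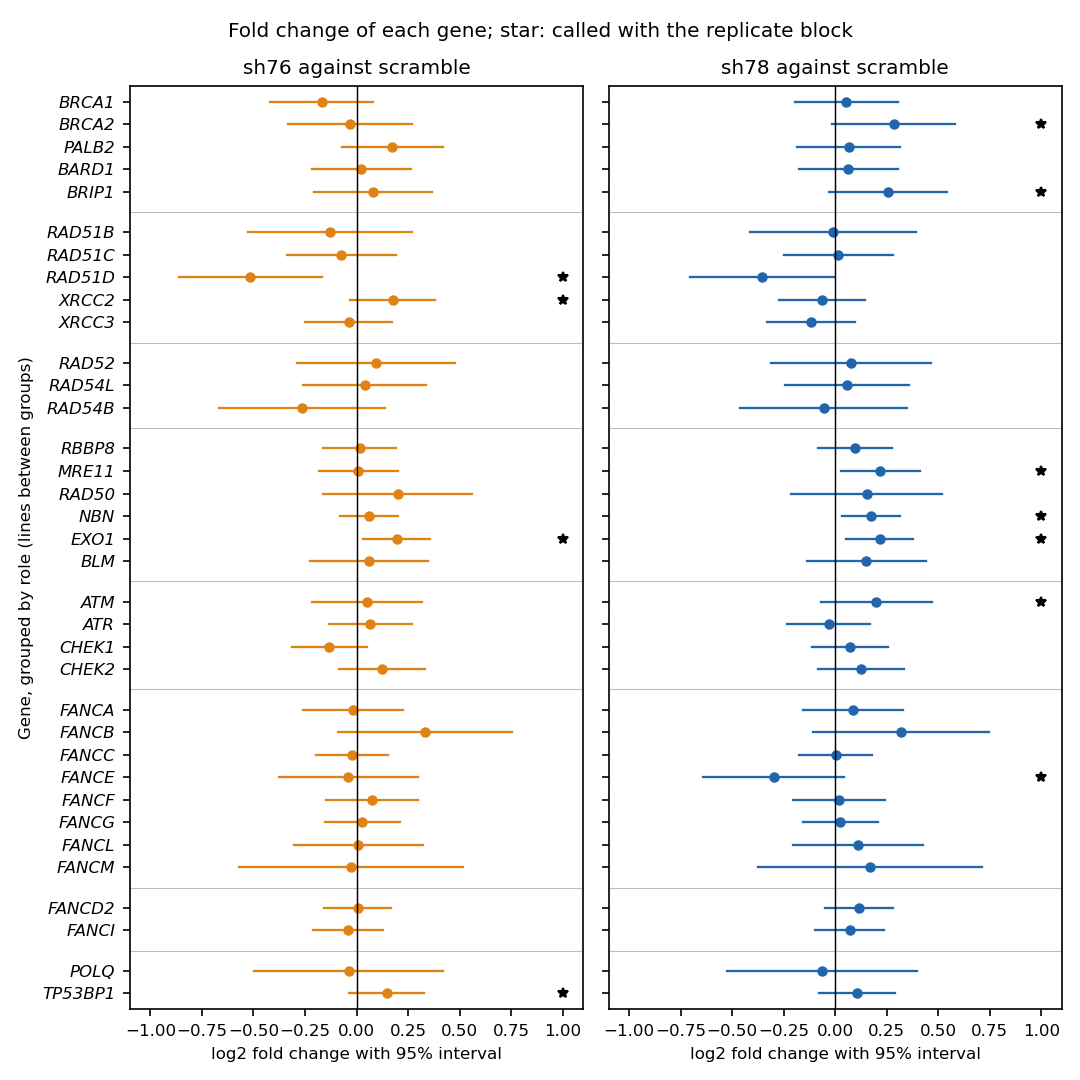
Log2 fold change of each gene with its 95% interval from edgeR, sh76 (left) and sh78 (right) against scramble, with genes grouped by role. No gene was called in this fit; a star marks the 4 genes (sh76) and 7 genes (sh78) called once the replicate number was added as a block.

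Samples with the same replicate number deviated together, so the fit was repeated with that number as a block. The block removes differences between replicate sets from the error. It called 4 of 35 genes with sh76 (11.4%), where it called 20.4% of all genes tested. It called 7 with sh78 (20%), against 19.9% of all genes, and 5 between the hairpins (14.3%), against 18.3%. The share of the 35 genes was thus at or below that of all genes in sh76 and between the hairpins, and near it in sh78. With sh76 the blocked calls were TP53BP1, XRCC2 and EXO1 higher and RAD51D lower. With sh78 they were NBN, ATM, EXO1, BRIP1, MRE11 and BRCA2 higher and FANCE lower. Between the hairpins MRE11, BRCA1, CHEK1 and BRCA2 were higher in sh78 and XRCC2 lower.

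On the TMM-scaled CPM, few of the 35 genes had libraries that separated completely between groups. With sh76, 3 of 35 genes (8.57%) had all libraries above all scramble libraries, PALB2, NBN and EXO1, against 10.8% of all genes. RAD51D and CHEK1 (5.71%) lay wholly below, against 11.7%. With sh78, NBN and EXO1 (5.71%) lay wholly above scramble, against 10.2%, and RAD51D and FANCE (5.71%) wholly below, against 11.2%. Between the hairpins, 5 genes (14.3%) lay wholly higher in sh78, BRCA2, MRE11, NBN, CHEK1 and FANCD2, against 10.9%, and XRCC2 (2.86%) wholly lower, against 10.9%.

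Of the 6 genes of end resection, which trim the broken DNA ends, none was called. At an unadjusted edgeR p under 0.05 there were 3 with sh78, against 17.5% of all genes tested. There was 1 with sh76, against 17.4%, and 1 between the hairpins, against 16.3%. EXO1, the long-range resection nuclease, was measured at 33.6, 33.9 and 36.0 CPM in scramble, at 39.5, 38.6 and 40.4 in sh76 and at 40.0, 39.4 and 40.9 in sh78. All 6 knock-down libraries lay above all 3 scramble libraries, and the knock-down groups overlapped each other. The log2 fold change was 0.19 ± 0.075 (SE) with sh76 (adjusted p = 0.187 in edgeR, blocked 0.0267) and 0.22 ± 0.076 with sh78 (adjusted p = 0.139, blocked 0.0147). MRE11, the nuclease of the complex that senses breaks, was at 31.2, 36.3 and 31.3 CPM in scramble, 33.6, 33.8 and 32.0 in sh76 and 40.7, 36.2 and 38.0 in sh78. All sh78 libraries were above all sh76 libraries, while the second scramble library reached into the sh78 range. Its log2 fold change was 0.22 ± 0.089 with sh78 (adjusted p = 0.210 in edgeR, blocked 0.0239), 0.21 ± 0.088 for sh78 over sh76 (adjusted p = 0.249, blocked 0.0308) and 0.01 ± 0.089 with sh76. NBN was at 72.6, 72.1 and 71.7 CPM in scramble, 77.2, 74.0 and 74.3 in sh76 and 80.0, 86.3 and 77.4 in sh78. On this TMM-scaled CPM the 3 groups did not overlap, with scramble lowest and sh78 highest. NBN's log2 fold change with sh78 was 0.17 ± 0.066 (adjusted p = 0.181 in edgeR, blocked 0.0166), and with sh76 it was 0.06 ± 0.066 (adjusted p = 0.703). Of the remaining resection genes, RBBP8, RAD50 and the BLM helicase were called in no comparison, blocked or not.

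Among RAD51B, RAD51C, RAD51D, XRCC2 and XRCC3, whose proteins assist strand exchange, the gene with the lowest fold change was RAD51D. It was measured at 8.81, 10.0 and 9.30 CPM in scramble, 5.06, 7.27 and 7.25 in sh76 and 7.59, 7.70 and 6.69 in sh78. All knock-down libraries were below all scramble libraries, with the first sh76 library the lowest. The log2 fold change was -0.52 ± 0.16 with sh76 (adjusted p = 0.102 in edgeR, blocked 0.0048) and -0.36 ± 0.16 with sh78 (adjusted p = 0.275, blocked 0.071). RAD51D's counts were low, 82 to 171 per library, and 9.4% of its exonic bases are shared, in largest part with RAD51L3-RFFL, which was listed at 0 throughout. XRCC2 was at 40.8, 39.7 and 34.4 CPM in scramble, 47.7, 43.8 and 38.5 in sh76 and 37.7, 37.3 and 34.8 in sh78. The sh76 and sh78 libraries did not overlap, and scramble lay across the lower sh76 and the sh78 values. XRCC2 had a log2 fold change of 0.18 ± 0.096 with sh76 (adjusted p = 0.370 in edgeR, blocked 0.0453) and -0.24 ± 0.097 for sh78 over sh76 (adjusted p = 0.219, blocked 0.0059). The sh76 value was 0.10 without the third scramble library or without the first sh76 library. RAD51B, RAD51C and XRCC3 were called in no comparison.

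**Figure D3:**
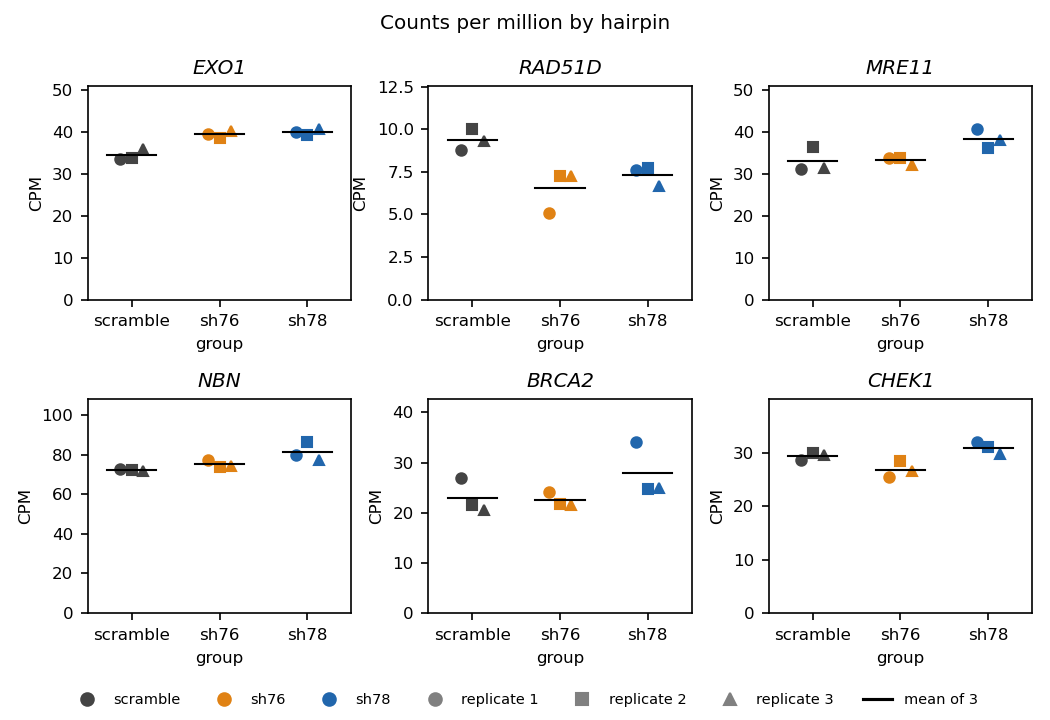
CPM of EXO1, RAD51D, MRE11, NBN, BRCA2 and CHEK1 in every library, by group, with the mean of 3 as a bar and the replicate number as the marker shape. EXO1 lies higher and RAD51D lower in all 6 knock-down libraries than in scramble, whereas the BRCA2 scramble libraries overlap both knock-down groups.

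BRCA1, the ubiquitin ligase that promotes resection and recruits PALB2, was at 30.4, 36.3 and 29.6 CPM in scramble, 28.2, 32.0 and 25.5 in sh76 and 34.6, 36.3 and 29.0 in sh78. All groups overlapped, and the second library was the highest in each of them. Its log2 fold change was -0.17 ± 0.12 with sh76 (adjusted p = 0.499 in edgeR), 0.05 ± 0.12 with sh78 (adjusted p = 0.874) and 0.22 ± 0.12 for sh78 over sh76 (adjusted p = 0.377, blocked 0.0228), the last 0.15 without the third sh76 library. BRCA2, a mediator of strand exchange, was at 27.0, 21.5 and 20.4 CPM in scramble, 24.1, 21.8 and 21.6 in sh76 and 34.0, 24.6 and 24.9 in sh78. Replicate 1 was the highest library of every group, and the sh78 libraries lay above all sh76 libraries but not above all scramble ones. BRCA2 had a log2 fold change of 0.28 ± 0.14 with sh78 (adjusted p = 0.320 in edgeR, blocked 0.0127) and of 0.32 ± 0.14 for sh78 over sh76 (adjusted p = 0.274, blocked 0.0070), while that with sh76 was -0.03 ± 0.14. Without the first sh78 library, BRCA2's log2 fold changes were 0.11 with sh78 and 0.14 for sh78 over sh76. Of the partners of these proteins, PALB2 and BARD1 were called in no comparison, blocked or not. The BRIP1 helicase was called only with the block and only with sh78. Its log2 fold change there was 0.26 ± 0.13 (adjusted p = 0.351 in edgeR, blocked 0.0085).

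Of the checkpoint kinases, ATM, which senses double-strand breaks, was at 39.2, 48.3 and 32.6 CPM in scramble, 42.6, 45.3 and 36.4 in sh76 and 46.6, 46.6 and 44.7 in sh78. All 3 groups overlapped, and the scramble libraries spread the most. The log2 fold change was 0.05 ± 0.12 with sh76 (adjusted p = 0.892 in edgeR) and 0.20 ± 0.12 with sh78 (adjusted p = 0.460, blocked 0.0287). The sh78 value was 0.069 without the third scramble library and 0.35 without the second. CHEK1, which slows the cell cycle under replication stress, was at 28.7, 29.9 and 29.6 CPM in scramble, 25.5, 28.4 and 26.6 in sh76 and 31.9, 31.0 and 29.8 in sh78. The sh76 libraries lay below both other groups, and the scramble and sh78 libraries overlapped. CHEK1 had a log2 fold change of -0.13 ± 0.085 with sh76 (adjusted p = 0.466 in edgeR), 0.07 ± 0.085 with sh78 (adjusted p = 0.743) and 0.20 ± 0.085 for sh78 over sh76 (adjusted p = 0.246, blocked 0.0473). ATR and CHEK2 were called in no comparison.

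In the Fanconi pathway, FANCD2, whose ubiquitination marks a crosslink, was at 46.9, 55.2 and 52.3 CPM in scramble, 51.1, 53.0 and 51.0 in sh76 and 54.4, 56.0 and 57.0 in sh78. The sh78 libraries lay above all sh76 libraries, and scramble overlapped both. FANCD2's log2 fold change was 0.01 ± 0.076 with sh76 (adjusted p = 0.985 in edgeR) and 0.12 ± 0.077 with sh78 (adjusted p = 0.497), with no call under the block. Of the 8 core genes, FANCE alone was called with the block, lower with sh78. FANCE, named after its values were seen, was at 15.1, 12.4 and 11.7 CPM in scramble and 11.3, 11.6 and 9.03 in sh78, a log2 fold change of -0.30 ± 0.16 (adjusted p = 0.368 in edgeR, blocked 0.049). All sh78 libraries were below all scramble libraries. FANCA, FANCB, FANCC, FANCF, FANCG, FANCL and FANCM were called in no comparison, blocked or not, nor was FANCI.

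More of the 35 genes were called by replicate number than by hairpin, where the block gave 4, 7 and 5 calls and the main fit 0. The tests were not alike, since each hairpin comparison was tested alone and the 3 numbers were tested jointly. The number was tested in edgeR with the group as covariate, a test chosen after seeing the data. It called 17 of 35 genes (48.6%), against 28.8% of all genes tested. These were BRCA1, BRCA2, BARD1, BRIP1, RAD51C, XRCC2, XRCC3, RAD52, RAD54L, RBBP8, BLM, ATM, ATR, FANCE, FANCM, POLQ and TP53BP1. The third replicate had the lowest mean of the 3 numbers in 15 of the 17, and the first the highest in 9. The same directions were not counted over all genes, so this order cannot be called particular to the 35. The count of genes called by replicate number was lower in several other fits. It was 9 (25.7%, against 21.9% of all genes) without the third scramble library, 10 (28.6%, against 21.5%) without the third sh76 library, and 6 (17.1%, against 15.5%) in limma on log2(FPKM + 1), which changes both the unit and the test. In these 3 settings the share of the 35 genes was nearer to that of all genes. What the number stands for is not given in the labels.

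POLQ, the polymerase of an error-prone break repair pathway, had the smallest p by replicate number. POLQ and FANCM were picked for this after their values were seen. POLQ was at 54.2, 50.6 and 39.1 CPM in scramble, 58.0, 44.9 and 37.5 in sh76 and 57.0, 44.2 and 36.1 in sh78. Replicate 1 was the highest and replicate 3 the lowest library of every group, and the means by number were 56.4, 46.6 and 37.5 CPM (adjusted p = 4.85e-09 in edgeR). FANCM, a helicase that recruits the core complex, was at 18.2, 16.0 and 12.7 CPM in scramble, 20.5, 13.4 and 12.3 in sh76 and 23.2, 12.9 and 16.4 in sh78. Replicate 1 was the highest in each group (means 20.6, 14.1 and 13.8, adjusted p = 3.36e-05). POLQ's log2 fold changes were -0.04 ± 0.20 with sh76 and -0.06 ± 0.21 with sh78, without a call. With the replicate block they were -0.05 ± 0.062 and -0.08 ± 0.063, again without a call. Since POLQ was picked for its p by replicate number, a larger spread between numbers than between groups follows from that choice.

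**Figure D4:**
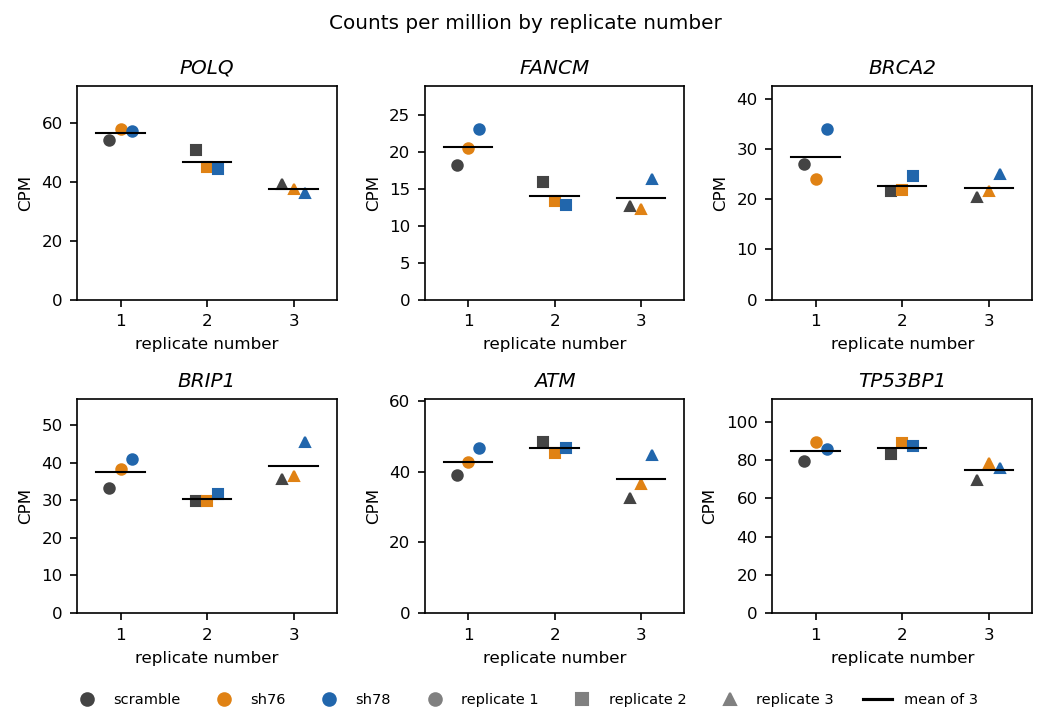
CPM of POLQ, FANCM, BRCA2, BRIP1, ATM and TP53BP1 in every library, by replicate number, with the mean of the 3 libraries that share a number as a bar and the group as the colour. POLQ has means of 56.4, 46.6 and 37.5 CPM in replicates 1, 2 and 3, and the 3 groups stay close together within each number.

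Few other repair genes were called in the main fit, which called 3.58%, 4.41% and 3.7% of all genes tested in the 3 comparisons. Of 62 tested genes from a list of 66 further recombination and Fanconi genes, H2AFX, the histone variant phosphorylated at breaks, alone was called, with sh78 (log2 fold change 0.24 ± 0.062, adjusted p = 0.0415 in edgeR). It was at 194 ± 8.64 CPM (SD, n = 3) in scramble and 230 ± 9.77 in sh78. None of 9 non-homologous end joining, 7 mismatch repair or 17 base excision repair genes was called in any comparison. Of 13 nucleotide excision repair genes, DDB1, a subunit of the UV damage sensor, fell with sh78 by 0.42 in log2 (SE 0.062, adjusted p = 0.0015 in edgeR). DDB1 was also called for sh78 over sh76, at -0.30 ± 0.062 (adjusted p = 0.015 in edgeR). The 27 proliferation markers gave 1, 3 and 1 calls in the 3 comparisons, all of them higher. MKI67, the Ki-67 antigen, was higher with both hairpins. It was at 402 ± 7.70 CPM in scramble, 498 ± 9.70 in sh76 and 498 ± 37.0 in sh78. Its log2 fold change was 0.31 ± 0.061 with each hairpin (adjusted p = 0.0125 in edgeR and 0.0096). MCM3 and MCM4, subunits of the replicative helicase, rose with sh78 by 0.27 ± 0.057 (adjusted p = 0.013 in edgeR) and 0.25 ± 0.056 (adjusted p = 0.0193). MCM3 was also called for sh78 over sh76, at 0.24 ± 0.056 (adjusted p = 0.031 in edgeR), and was at 0.03 ± 0.056 with sh76. With the replicate block, which called 20.4%, 19.9% and 18.3% of all genes in the 3 comparisons, the 62 further recombination genes gave 6 higher and 4 lower calls with sh76 (16.1%), 12 and 1 with sh78 (21%), and 6 and 1 for sh78 over sh76 (11.3%). The proliferation markers gave 3 higher and 1 lower with sh76 (14.8%), 6 and 1 with sh78 (25.9%), and 3 and 1 for sh78 over sh76 (14.8%). Nucleotide excision repair gave 0 higher and 4 lower with sh76 (30.8%), 1 and 2 with sh78 (23.1%), and 2 and 1 for sh78 over sh76 (23.1%). End joining gave 1 higher and 0 lower with sh76 (11.1%), 2 and 1 with sh78 (33.3%), and 0 and 1 for sh78 over sh76 (11.1%). Mismatch repair gave 1 higher call, with sh78 (14.3%). Base excision repair gave 1 lower with sh76, 1 higher with sh78 and 1 higher for sh78 over sh76 (5.88% each). The medians of the 27 proliferation log2 fold changes were 0.06 with sh76 and 0.08 with sh78. The part of proliferation in the values of the 35 genes was not tested.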

How the data were processed

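RNA was sequenced from 9 OVCAR3 libraries, 3 per group. Per the labels' protocols, mRNA was selected with poly-T beads and the libraries were non-directional. HISAT2 2.0.5, featureCounts 1.5.0-p3 and hg38 are named in the submitters' processing notes, and the counting options are not given in the sources used here. The authors deposited counts per gene and FPKM values. The FPKM matched the counts divided by gene length and by 1 size per library, which was 98.1% to 103% of that library's total count. All 58735 genes had the identifier, name, start and end of GENCODE 29. All per-sample columns were used.

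The tests used edgeR 4.0.16 (R 4.3.3) on the counts of 17023 genes that passed filterByExpr (minimum count 10, minimum total 15), with TMM factors, robust quasi-likelihood F tests, 1 coefficient per group and Benjamini-Hochberg adjustment. The common biological coefficient of variation was 10.4%. Alternatives were DESeq2 1.42.0, median-of-ratios scaling, no filter, limma 3.58.1 on log2 of the deposited FPKM plus 1 or 0.1, the replicate block, and leaving out each library. The script was tested on simulated data. Intervals are 95% intervals, and SE is that of the fit. Total counts were 14652965 to 21327562 per library, and a higher count carries less counting error. SE also holds the spread between libraries. With sh76 it was 0.20 for both POLQ, at a mean count of 811, and FANCB, at 99.8.

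Replicate numbers were read as pairs, because all 9 same-numbered pairs of libraries correlated in their deviations from the group means (r 0.14 to 0.39), against -0.31 to 0.06 in the 18 other pairs. The comparison of replicates found no library deposited in duplicate. The members and gene lists were chosen with earlier results of these data known. Values in every library are given for BRCA1, BRCA2, ATM, CHEK1 and FANCD2 and for the 5 further genes with most blocked calls and then the smallest p, and other genes named were chosen after their values were seen.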

Additional observations from a re-analysis of the deposited data

Results flagged for a closer look

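In all 3 same-numbered pairs the CPM of CHEK1 was lower in sh76 and higher in sh78 than in the scramble library. The log2 fold change of sh78 over sh76 was 0.20 ± 0.085 (SE), which did not pass the main edgeR test (adjusted p = 0.246) and passed with the replicate block (adjusted p = 0.0473). Both comparisons with scramble use the same 3 scramble libraries.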

How the results depend on the processing

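None of the 35 genes was called in any of the 3 comparisons with DESeq2, median-of-ratios scaling, no filter on low counts, limma on either FPKM scale, or after leaving out any 1 library. With the replicate block the numbers called were 4 with sh76, 7 with sh78 and 5 between the hairpins. For the 10 genes given in full, 426 of the alternative values kept their direction and side of the threshold and 13 passed it, all with the replicate block. Another 11 changed sign after leaving out 1 library, all of them near 0 and none called. With 1 library left out in turn, log2 fold changes with sh76 ran from -0.11 to 0.094 for BRCA2, -0.083 to 0.20 for ATM, -0.061 to 0.052 for FANCD2 and -0.032 to 0.079 for MRE11, and those of BRCA1 with sh78 ran from -0.014 to 0.15. The 17 genes called by replicate number became 6 in limma on log2(FPKM + 1), 6 on log2(FPKM + 0.1), and 9 to 17 after leaving out 1 library. Of the 9 libraries, removing scramble replicate 3 gave 9 and sh76 replicate 3 gave 10. The cause was not tested. The lowest count of any of the 35 genes in a library was 72, in RAD54B.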
